A study of Mus musculus with 18 samples.

Results

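Intestinal epithelial transcripts were measured in eosinophils sorted from the mouse small intestine. The genes are 41 enterocyte, goblet cell, Paneth cell and general epithelial genes out of 22708 in the deposited table, taken by their symbol, with Muc2 matched by its Entrez ID because the table gives it no symbol. They were chosen as a list of epithelial genes to measure epithelial RNA in sorted eosinophils, with no measured value in the rule. Earlier results of these data were known when the genes were chosen. RNA of CD11b+MHC-II-SiglecF+SSChi cells was sequenced in bulk from 18 samples of strain C57BL/6. Each of WT, Ahr knockout (Ahr-/-) and Ahrr knockout (Ahrr-/-) gave 6 samples, 3 from females (F1 to F3) and 3 from males (M1 to M3). Ahr encodes the aryl hydrocarbon receptor, a ligand-activated transcription factor, and Ahrr encodes its repressor. No treatment is labelled, and neither the alleles of the Ahr-/- and Ahrr-/- mice nor the age of each sample is given. According to the paper, Ahr-/- and WT mice were neither littermates nor cohoused, and its text does not report on Ahrr-/- eosinophils.

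The deposited values are variance-stabilized levels on a log2 scale, whose lowest value belongs to genes without a read. Turned back, they gave whole counts, and a normalized count here is such a count divided by the size factor of its sample. Total counts lay between 3842977 and 8149200 in WT. They lay between 6581818 and 10284124 in Ahr-/- and between 8788867 and 12046933 in Ahrr-/-. A single read therefore equals a normalized count of 0.616 in Ahrr-/- F3, the deepest sample, and of 2.06 in WT F3, the shallowest. WT F3 and Ahr-/- F3 stood apart from the rest, since 2464 and 3014 genes had a count of 0 there, against 5472 to 7562 genes in the other samples.

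The sorted cells carried transcripts of eosinophil surface receptors and enzymes in all 18 samples. Ccr3, the eotaxin receptor, lay between 5286 and 15551 normalized counts, Siglecf between 837 and 3113, and Il5ra, the IL-5 receptor chain, between 992 and 3206. Of the genes of granule proteins, several were near 0, but Prg2, the major basic protein, had at most 189 normalized counts in WT and Ahrr-/- and 325 to 925 in Ahr-/-. Epx, eosinophil peroxidase, lay between 3.03 and 23.6 normalized counts, and Prg3, Ear1 and Ear2 reached at most 22.8, 22.7 and 30.2. Ear6 had at most 2.06. Sex labels fitted the data, with Xist at or above 22236 normalized counts in females and at or below 46.9 in males. Counts over the whole Ahr and Ahrr genes do not check the deletions, because the deleted parts are not known. Ahr had 10766 to 21591 normalized counts in WT and 18084 or more in each Ahr-/- sample, and Ahrr had 819 to 1281 in WT and 925 to 1888 in Ahrr-/-, so that neither transcript was lower under its knockout label. The AHR target gene Cyp1b1 had 349 to 1134 normalized counts in WT, 0.758 to 4.71 in Ahr-/- and 553 to 1339 in Ahrr-/-.

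The epithelium of the small intestine is renewed from stem cells in the crypts, which give rise to absorptive enterocytes and to secretory cells. Enterocytes carry a brush border with digestive enzymes and package dietary fat into lipoproteins, whereas goblet cells secrete mucus and Paneth cells fill the crypt base with antimicrobial proteins. Neighbouring epithelial cells are joined by cadherins and claudins, and eosinophils lie beneath them in the lamina propria.

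Epithelial transcripts were present in every sample, and their level differed widely between samples. The 41 genes took 0.264% (95% exact Clopper-Pearson interval 0.260 to 0.269) of all counts in WT F2, the lowest WT sample, and 0.906% (0.898 to 0.913) in WT F1, the highest, with a WT median of 0.413%. In Ahr-/-, their share lay between 0.210% (0.207 to 0.213) in F2 and 0.379% (0.375 to 0.384) in M1, with a median of 0.324%. In Ahrr-/-, it lay between 0.254% (0.251 to 0.258) in F2 and 1.97% (1.96 to 1.98) in M3, with a median of 1.08%. Thus the groups overlapped, and Ahrr-/- held both low and high samples. Ahrr-/- F1 with 0.347% (0.344 to 0.351) lay within the WT range, and Ahrr-/- F2 lay just below WT F2. Ahrr-/- M2 had 0.858% (0.852 to 0.865), below WT F1, while F3 with 1.34% (1.33 to 1.34), M1 and M3 lay above every WT and Ahr-/- sample. These intervals cover counting error only.

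**Figure D1:**
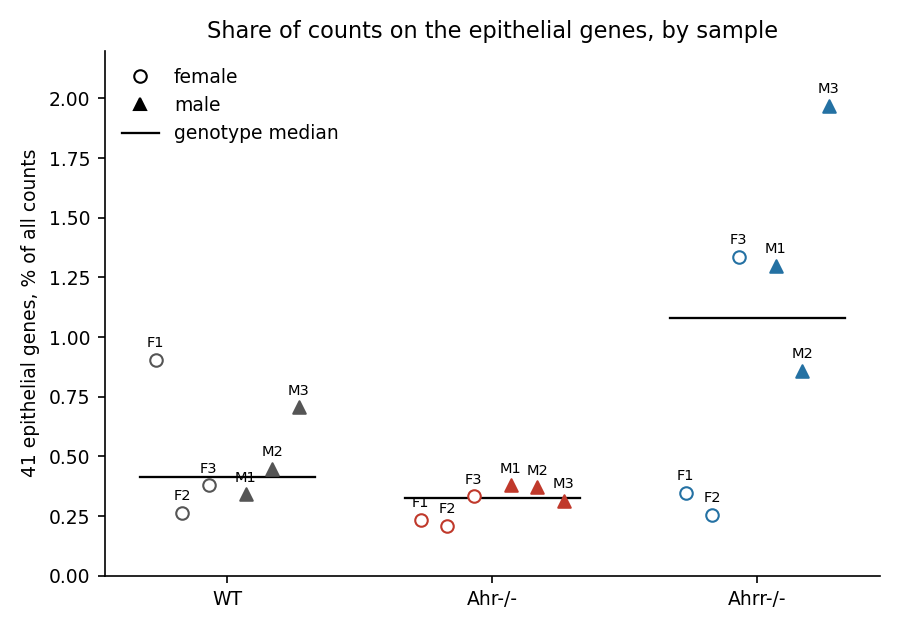
Share of all counts taken by the 41 epithelial genes, in percent, in each of the 18 samples by genotype, with sexes marked. Ahr-/- samples lie between 0.210% and 0.379%, WT samples between 0.264% and 0.906%, and Ahrr-/- samples between 0.254% and 1.97%.

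Summed over the 41 genes, the normalized counts lay between 23183 and 68062 in WT (median 32396). They lay between 19452 and 28783 in Ahr-/- (median 26023) and between 24030.4 and 131983 in Ahrr-/- (median 80348). The median of WT was 1.24 times that of Ahr-/-, and the median of Ahrr-/- was 2.48 times that of WT and 3.09 times that of Ahr-/-. In bulk RNA, fewer epithelial cells in a sample and less epithelial RNA per cell cannot be told apart. Nor can RNA of epithelial cells be told from RNA made by the eosinophils, to which the paper assigns Reg3b, Reg3g and Tff3. The source of the transcripts was not tested. According to the paper, the epithelial layer was removed with EDTA before the tissue was digested, and CD11b+ cells were selected with beads before the sort. Over all 18 samples, Lyz1, the lysozyme of Paneth cells, had the highest mean normalized count of the 41 genes. In WT alone, its mean of 3456 was below those of Pigr (4296) and Muc2 (3475), and in Ahrr-/- its mean was 13927. Lyz1 gave between 3.07% of the epithelial sum in Ahr-/- M2 and 30.1% in Ahrr-/- M1, and without it the medians of the sum were 30104 in WT, 22024 in Ahr-/- and 67361 in Ahrr-/-.

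Per kilobase of exon, secretory genes ranked highest among the 41 by their means over all 18 samples. Lyz1 had a mean of 5498 normalized counts per kilobase and ranked 24 of 22183 genes with a known length. Spink4, a protease inhibitor of goblet cells, followed with 2008 (rank 116), and Zg16, a lectin-like protein of mucus, with 1914 (rank 123). Keratin 19 (Krt19), a filament protein of simple epithelia, had 1223, and Fabp2, the intestinal fatty acid-binding protein, had 1157 normalized counts per kilobase. In Ahr-/- alone, Krt19 ranked above Zg16 and Spink4. The lowest of the 41 was the pentraxin gene Mptx1 with 4.51, and it had a count of 0 in 6 samples. Atoh1 and Spdef, factors of the secretory lineage, had 6.86 and 6.59 normalized counts per kilobase. Atoh1 had a count of 0 in 1 sample, and the other 39 genes were counted in all 18.

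Enterocyte genes formed the absorptive side of the list. Among 6 genes of lipid handling (Fabp1, Fabp2, Apoa1, Apoa4, Apob and Apoc3), Apob, the structural protein of chylomicrons, was the most abundant, here and below by mean normalized count over all 18 samples, without regard to length. Apob lay between 768 and 2074 normalized counts in WT (median 1320), between 519 and 2013 in Ahr-/- (median 944) and between 581 and 6103 in Ahrr-/- (median 2351). Its 3 highest samples were Ahrr-/- M3, F3 and M1, and the ranges of all 3 genotypes overlapped. Of 4 brush border genes (Alpi, Anpep, Sis and Vil1), Sis was the most abundant. Sis encodes sucrase-isomaltase and lay between 912 and 2998 normalized counts in WT (median 2010), between 427 and 2016 in Ahr-/- (median 1102) and between 658 and 7921 in Ahrr-/- (median 5155). Ahrr-/- F3, M3 and M1 were far above the other samples, and Ahr-/- F2 and F1 were lowest.

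General epithelial genes were high in the same Ahrr-/- samples, M1, F3 and M3. Krt19 led the keratins Krt8, Krt18, Krt19 and Krt20, with 940.4 to 4359 normalized counts in WT (median 1706), 886 to 1867 in Ahr-/- (median 1330) and 1257 to 5475 in Ahrr-/- (median 3334). Cdh17, a cadherin of intestinal epithelium, led the adhesion genes Epcam, Cdh1, Cdh17 and Lgals4. It had 968 to 2134 normalized counts in WT (median 1507), 577 to 1347 in Ahr-/- (median 999) and 876 to 3650 in Ahrr-/- (median 2030.4). For both genes WT F1 lay above the Ahrr-/- median. Ahrr-/- F1 and F2 lay within the WT range for Krt19 and below it for Cdh17. Of the claudins, which seal or open the space between cells and are here Cldn2, Cldn3, Cldn7 and Cldn15, Cldn7 had the highest mean over all samples but led in Ahrr-/- alone. In WT and Ahr-/-, Cldn15 had means of 398 and 363 normalized counts, against 384 and 273 for Cldn7. Cldn7 had 163 to 801 normalized counts in WT (median 293), 128 to 375 in Ahr-/- (median 319) and 205 to 1031 in Ahrr-/- (median 712). Pigr, which carries dimeric IgA across the epithelium, stood beside Phgr1 as other epithelial genes. Its normalized counts were 1908 to 9165 in WT (median 3298), 1319 to 4044 in Ahr-/- (median 2289) and 2149 to 10403 in Ahrr-/- (median 5173). WT F1 was the second highest of all samples for Pigr, after Ahrr-/- M3.

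The 6 goblet cell genes were Muc2, Fcgbp, Clca1, Zg16, Spink4 and Guca2a. Their sum took 19.1% to 35.7% of the epithelial sum in WT, 14.9% to 24.5% in Ahr-/- and 15.1% to 31.9% in Ahrr-/-. The 5 Paneth and stem cell genes (Lyz1, Mptx1, Mptx2, Ang4 and Olfm4) took 7.93% to 24.0% in WT, up to 31.0% in Ahr-/- and 16.3% to 38.2% in Ahrr-/-. Within Ahr-/-, Lyz1 was not high in the same samples as Apob and Sis. Ahr-/- F1 and F2, which were the lowest Ahr-/- samples for Apob and Sis, held 4113 and 4995 normalized counts of Lyz1, whereas Ahr-/- M2, the highest Ahr-/- sample for Apob and Sis, had 844, the lowest of all samples. In Ahrr-/-, M1, M3 and F3 were the highest samples for Lyz1 as for Apob and Sis, and Olfm4 was lowest in Ahr-/- F1 and F2. The last group were transcription factors, led by Hnf4a, a nuclear receptor of enterocytes, with Elf3, Cdx1, Cdx2, Atoh1 and Spdef. Hnf4a had 445 to 1741 normalized counts in WT (median 741), 385 to 749 in Ahr-/- (median 577) and 538 to 2402 in Ahrr-/- (median 1153).

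**Figure D2:**
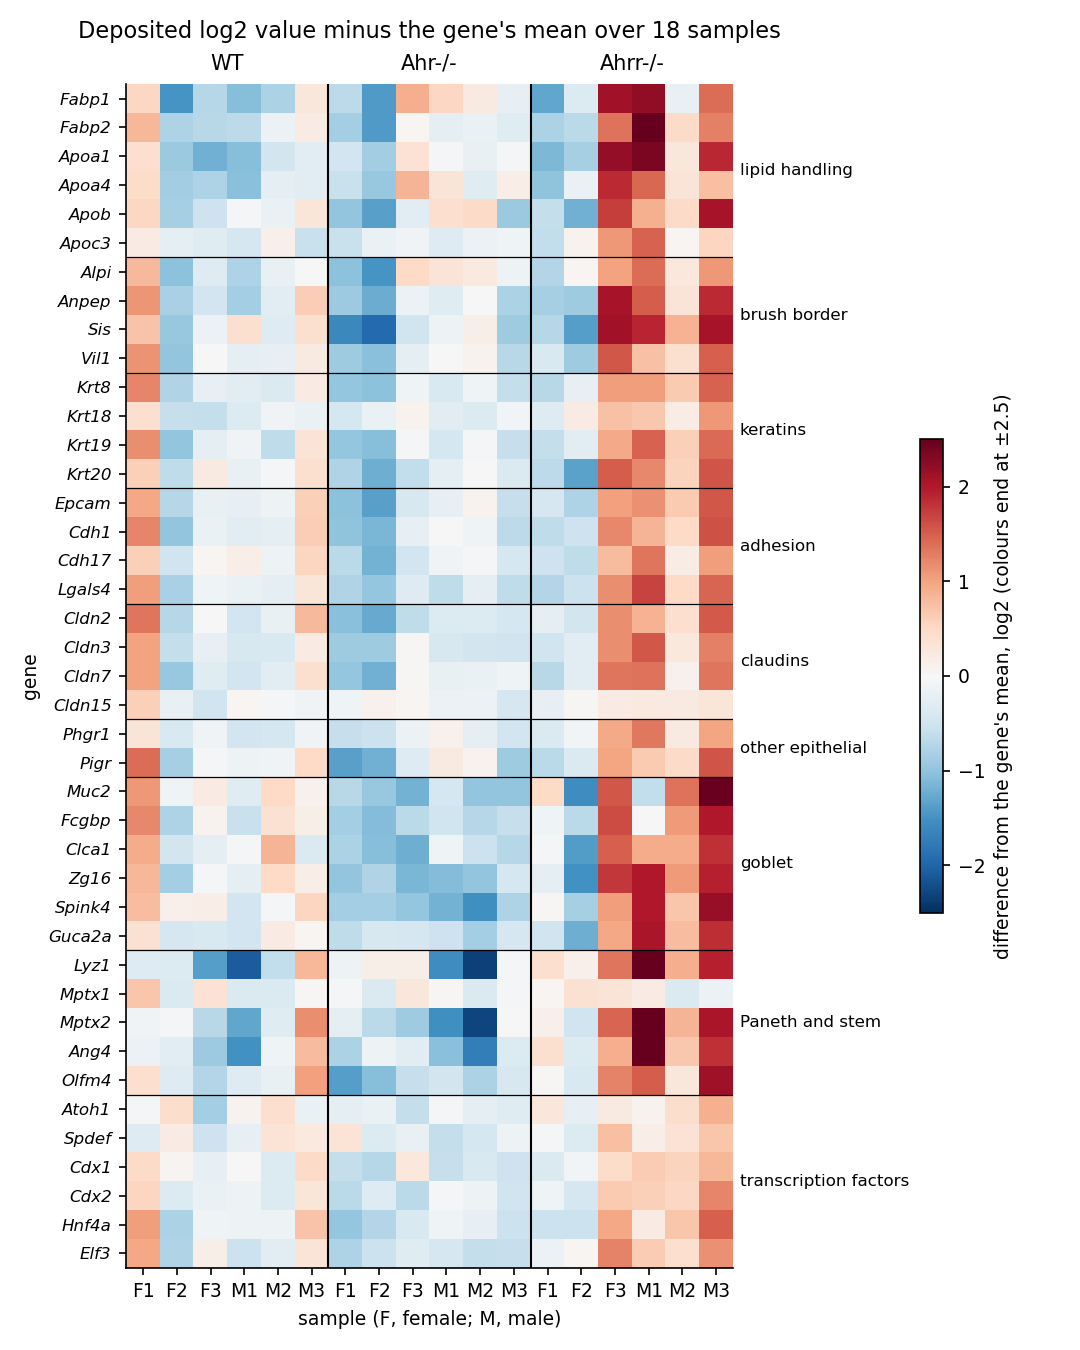
Heat map of the 41 epithelial genes by role (vertical) in the 18 samples (horizontal), coloured by the deposited log2 value minus the mean of each gene over all samples. Ahrr-/- M3 was among the 3 highest samples for 39 of 41 genes, Ahrr-/- F3 for 35 and Ahrr-/- M1 for 29.

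Across the 39 genes never at 0, the highest sample held between 2.41 times (Cldn15) and 121 times (Mptx2) the normalized count of the lowest, with a median of 11.0. The highest sample was Ahrr-/- M3 for 17 of the 41 genes, M1 for 16 and F3 for 6, and it was WT F1 for 2. Ahr-/- F2 was the lowest for 16 genes and Ahr-/- F1 for 7. Within a genotype, the median standard deviation of the 38 members with a mean of at least 1 above the lowest value was 0.62 on the deposited log2 scale in WT, 0.41 in Ahr-/- and 0.98 in Ahrr-/- (n = 6 each). Over all 11468 genes above that level, it was 0.26, 0.21 and 0.32. For 35 of the 41 genes, the spread was largest in Ahrr-/-.

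Sequence shared with other genes bore on few members. With exons read in stretches of 75 bases, 31 of the 41 genes had no stretch that occurs in another gene. Apoa4 shared 56.1% of its stretches with the gene models Gm10680 and Gm47528, and Krt8 shared 23.5% with Krt8-ps and Gm36026. The pentraxins Mptx1 and Mptx2 shared 10.1% each. Lyz1 shared 6.22% with Lyz2, the lysozyme of myeloid cells, which lay between 491 and 7377 normalized counts in these samples.

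Promoters of the members were read for the letters that AHR and 2 of the listed transcription factors bind. RefSeq gave 35 promoters for 33 of the genes in GRCm38.p6, each taken as the 250 bases before the start. GCGTG, the core that AHR binds with its partner ARNT, occurred on either strand in 8 of the 35 (22.9%) and in 28.1% of all 32817 promoters. It was found before Anpep, Atoh1, Cldn7, Krt18, Lgals4, Olfm4 and Spdef. CAAAGTCCA, a sequence of the kind HNF4A binds, occurred in Alpi alone among the members, in 2.86% of their promoters and in 0.384% of all. TTTATGG, a sequence of the kind CDX2 binds, occurred in Epcam and Fabp1, in 5.71% of the members' promoters and in 2.43% of all. Apoc3, Cdh1, Cdh17, Cdx1, Clca1, Krt19, Spink4 and Zg16 had no entry. The promoters of Olfm4 (chr14:80000052-80000301, plus strand), Lgals4 (chr7:28833544-28833793, plus strand), Alpi (chr1:87101607-87101856, minus strand) and Epcam (chr17:87635729-87635978, plus strand) in GRCm38.p6 are shown because each holds a match to 1 of these sequences and together they stand for all of them. Capitals mark the matches: GCGTG, printed as CACGC where it lies on the reverse strand, in Olfm4 (from 65 bases before the start) and Lgals4 (from 19 bases), CAAAGTCCA in Alpi (from 19 bases) and TTTATGG, printed as CCATAAA, in Epcam (from 29 bases).
Olfm4: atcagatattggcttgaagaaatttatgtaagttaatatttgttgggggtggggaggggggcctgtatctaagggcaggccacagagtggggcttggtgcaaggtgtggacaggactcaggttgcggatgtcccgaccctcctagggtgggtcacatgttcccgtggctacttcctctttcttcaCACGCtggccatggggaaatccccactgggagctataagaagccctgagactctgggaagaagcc
Lgals4: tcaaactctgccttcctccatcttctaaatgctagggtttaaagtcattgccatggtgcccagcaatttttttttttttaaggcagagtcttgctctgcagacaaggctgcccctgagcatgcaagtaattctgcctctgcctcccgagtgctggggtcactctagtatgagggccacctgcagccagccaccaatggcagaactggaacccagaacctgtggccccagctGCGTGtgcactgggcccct
Alpi: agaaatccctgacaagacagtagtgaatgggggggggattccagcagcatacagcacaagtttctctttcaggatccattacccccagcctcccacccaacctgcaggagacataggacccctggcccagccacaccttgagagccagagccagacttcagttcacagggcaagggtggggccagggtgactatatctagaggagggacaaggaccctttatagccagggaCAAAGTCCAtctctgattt
Epcam: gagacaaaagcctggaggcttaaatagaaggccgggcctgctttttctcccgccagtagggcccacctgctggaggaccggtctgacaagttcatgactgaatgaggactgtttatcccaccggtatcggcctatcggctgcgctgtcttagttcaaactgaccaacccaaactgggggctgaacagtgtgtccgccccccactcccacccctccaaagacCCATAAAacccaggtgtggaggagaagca
A match describes the letters of the window and does not show that a factor binds there.

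WT and Ahr-/- samples were compared to see what the loss of AHR changes in the transcriptome of intestinal eosinophils. Of the 6 goblet cell genes, Spink4, Muc2, Zg16 and Clca1 were lower in Ahr-/- samples and passed the test, with differences of 0.85 to 1.20 on the deposited log2 scale (n = 6 per genotype), and Fcgbp and Guca2a did not pass. With all 18 samples in the fit, 0 members were called by limma, and 236 of all 11468 genes tested were called higher in WT. Enterocyte, keratin, adhesion and claudin genes were mostly higher in WT as well, but none of them passed. The difference of Paneth cell lysozyme was near 0, and a few lipid genes were higher in Ahr-/- without passing. Pancreatic acinar genes were higher in WT too, with a median difference of 1.51 and 4 of 9 tested called, where 3.68% of all genes tested were called higher in WT. The 4 called had medians of 0 to 4.11 normalized counts in Ahr-/-, so they reached the mean needed for testing through WT. The part of acinar genes in the result was not tested.

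Spink4 had 487 to 1248 normalized counts in WT (median 786) and 204 to 391 in Ahr-/- (median 349). The lowest WT sample, M1, lay above the highest Ahr-/- sample, M3, so that the genotypes did not overlap. Spink4's difference, WT minus Ahr-/-, was 1.20 on the deposited log2 scale (standard error [SE] 0.17, 95% interval 0.83 to 1.56, adjusted p = 0.000286 from limma). Muc2, the gel-forming mucin of intestinal mucus, had 2240 to 5951 normalized counts in WT (median 3084) and 1182 to 2024 in Ahr-/- (median 1388). WT F1 was highest and Ahr-/- F3 lowest, again without overlap. Muc2 differed by 1.12 on the deposited log2 scale (SE 0.20, 95% interval 0.70 to 1.54, adjusted p = 0.00174 from limma). Spink4 lies on chromosome 4 of GRCm38 from 40920052 to 40931395 and Muc2 on chromosome 7 from 141690340 to 141754693. Zg16, whose protein binds Gram-positive bacteria in mucus, had 948 to 3154 normalized counts in WT (median 1829.65) and 759 to 1272 in Ahr-/- (median 851). WT F2 lay below Ahr-/- F2 and M3, so the genotypes overlapped, and the other 5 WT samples lay above all Ahr-/- samples. The difference of Zg16 was 0.96 on the deposited log2 scale (SE 0.22, adjusted p = 0.0116 from limma). Clca1, a protease secreted into mucus, had 764 to 2095 normalized counts in WT (median 973) and 427 to 999 in Ahr-/- (median 615). Ahr-/- M1 reached into the WT range. Its difference was 0.85 (SE 0.24, adjusted p = 0.0354 from limma).

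Of the 41 genes, 37 passed the minimum mean of 1 above the lowest value (all but Apoc3, Mptx1, Atoh1 and Spdef), and 32 of these were higher in WT. With values centred on the median of each sample, or with voom, it was 31, because Alpi changed sides. The 4 called genes compare with 3.68% of the 11346 genes tested that were called higher in WT, and the 2 without overlap, Spink4 and Muc2, with 1.89%. Higher in Ahr-/- were 0 called members by limma and by voom and 0 members without overlap, where 5.16% of all genes tested were called by limma and 2.62% did not overlap. Without adjustment, 17 of the 37 had a p below 0.05, as had 2638 of the 11346 genes tested. The median difference of the members was 0.50, against 0.00 over all genes tested, and it was 0.31 without WT F1. By role, the median difference was 0.90 for goblet genes, 0.60 for adhesion genes, 0.54 for Paneth and stem genes, 0.51 for transcription factors, 0.48 for keratins, 0.45 for the brush border and -0.37 for lipid handling. All 6 goblet genes had an unadjusted p below 0.05. Among the uncalled genes, Fcgbp, an IgG Fc-binding protein of mucus, differed by 0.81 (adjusted p = 0.0561 from limma), Olfm4, a glycoprotein of crypt stem cells, by 0.76 (adjusted p = 0.0522) and Cdh17 by 0.61 (adjusted p = 0.0517). Lyz1 had 1014 to 8013 normalized counts in WT (median 3207) and 844 to 4995 in Ahr-/- (median 4218), and its difference was -0.02 (SE 0.45, 95% interval -0.98 to 0.93). Fabp1, the liver fatty acid-binding protein, differed by -0.43 (SE 0.38, adjusted p = 0.524 from limma).

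Single libraries and the fit moved this count. Without WT F2, 11 members were called, and without WT M1, 8, and 0 were called by limma when all 18 samples entered the fit, where 9 had an unadjusted p below 0.05. Over all genes tested, 477, 465 and 236 were called higher in WT in the same fits, against 418 in the main fit. Clca1 was no longer called without WT F3, without WT M2, or without any 1 of Ahr-/- F1, F2, F3, M2 and M3. Its call also ended with no minimum mean and with a robust mean-variance trend. Without WT F3 and Ahr-/- F3, the libraries with few genes at 0, 4 members were called, namely Spink4, Muc2, Olfm4 and Cdx1, so that 2 of the 4 were shared and Zg16 and Clca1 were no longer called. Of all 11271 genes tested there, 252 were called higher in WT.

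**Figure D3:**
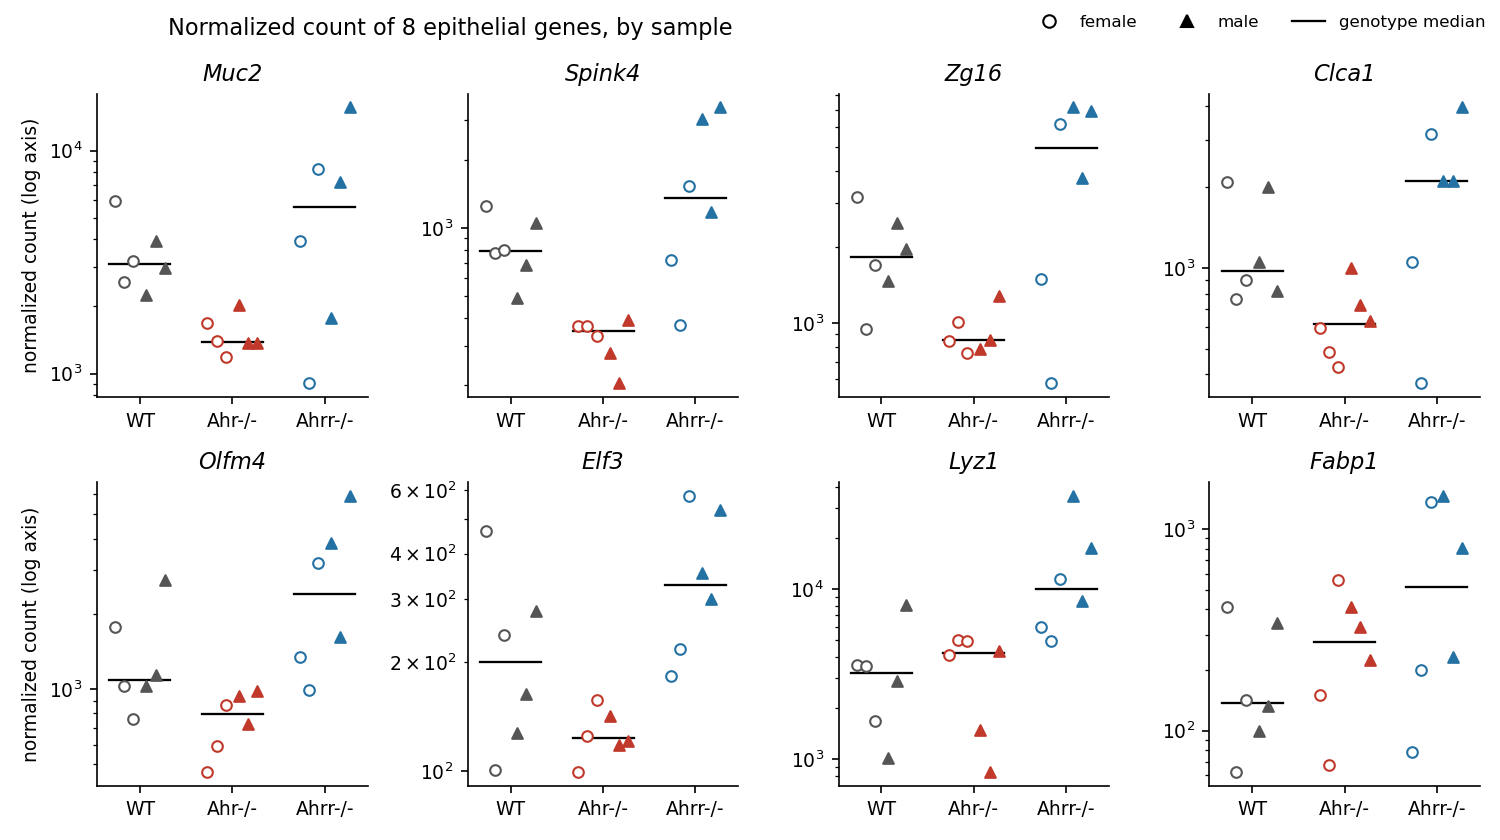
Normalized counts (log axis) of 8 epithelial genes in each of the 18 samples by genotype, with females and males marked and the median as a line. Spink4 and Muc2 did not overlap between WT and Ahr-/-, and Olfm4 and Elf3 did not overlap between Ahr-/- and Ahrr-/-.

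Ahrr-/- was compared with the same WT samples, so that these values and those for Ahr-/- share 6 libraries. All 38 members tested had a higher mean in Ahrr-/- than in WT, and none passed the test. Apoc3 is among them only because its Ahrr-/- values raised it to the minimum mean, so its direction was fixed by that filter. With no minimum mean, all 41 members had a higher mean in Ahrr-/-. By role, the median difference was largest for Paneth and stem genes, followed by lipid handling, and differences between roles were not tested. For Lyz1, Ang4, Mptx2 and Fabp1, 3 or 4 of the 6 Ahrr-/- samples lay above every WT sample and the others within the WT range.

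Lyz1 had 4927 to 35281 normalized counts in Ahrr-/- (median 9999.6), against 1014 to 8013 in WT. Ahrr-/- M1, M3, F3 and M2 lay above every WT sample, and Ahrr-/- F1 and F2 lay below WT M3. The difference, Ahrr-/- minus WT, was 1.93 on the deposited log2 scale (SE 0.47, 95% interval 0.93 to 2.94, adjusted p = 0.323 from limma). Ang4, an antimicrobial ribonuclease of Paneth cells, had 76.2 to 598 normalized counts in WT (median 273) and 241 to 3046 in Ahrr-/- (median 600.3). The highest sample was Ahrr-/- M1, and Ahrr-/- F2 was lower than 4 of the WT samples. Ang4 differed by 1.44 (SE 0.44, adjusted p = 0.502 from limma). Mptx2, a pentraxin of Paneth cells, had 83.2 to 705 normalized counts in WT (median 242) and 185 to 2513 in Ahrr-/- (median 718), a difference of 1.36 (adjusted p = 0.575 from limma). Apoa1, an apolipoprotein of enterocytes, differed by 1.37 (SE 0.54, adjusted p = 0.617) and Fabp1 by 1.19 (adjusted p = 0.669 from limma). Muc2 had 904 to 15629 normalized counts in Ahrr-/- (median 5579), both below and above the WT range, and its difference of 0.37 had a 95% interval from -0.78 to 1.52.

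Of the 41 genes, 38 passed the minimum mean (all but Mptx1, Atoh1 and Spdef). By limma 0 of them were called in either direction, as by voom, while 0.0779% of the 11546 genes tested were called higher in Ahrr-/- and 0% higher in WT. Without adjustment, 11 of the 38 had a p below 0.05 by limma and 8 by voom, and 853 of the 11546 genes tested had one by limma. Single libraries moved the members' number from limma. It was 28 without WT F1, 21 without Ahrr-/- F2 and 19 without Ahrr-/- F1. It was 6 without WT F2, WT F3 or Ahrr-/- M3, 5 without WT M1 or Ahrr-/- F3 and 4 without Ahrr-/- M1, and it was 27 with sample weights. None of the members separated the genotypes without overlap, against 0.277% of genes tested that did so with higher values in Ahrr-/- and 0.182% with higher values in WT. The median difference of the members was 0.64, against 0.01 over all genes tested. It was 1.40 for Paneth and stem genes, all 4 of which had an unadjusted p below 0.05, and 0.94 for lipid handling, 0.77 for the brush border, 0.62 for goblet genes and keratins, and 0.36 for transcription factors. The smallest difference was 0.16, for Cldn15, a claudin that forms sodium pores.

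Ahr-/- and Ahrr-/- were compared directly, and each of these groups also serves in 1 of the comparisons with WT. All 38 members tested were higher in Ahrr-/-, and 24 of them passed the test, with differences of 0.63 to 2.08 on the deposited log2 scale (n = 6 per genotype). Of all 11474 genes tested, 8.04% were called higher in Ahrr-/-. The number of members called lay between 9 and 32 when each library was left out in turn. By role, the median difference was largest for Paneth and stem genes and for goblet genes. The 6 genes of lipid handling were higher in Ahrr-/- too, with a median difference of 0.88, and none of them passed the test. Of these, Apoc3 reached the minimum mean through Ahrr-/- alone, so its direction was fixed by that filter. Markers of other cells moved as well. Jchain of plasma cells was 3.20 higher in Ahrr-/- and passed, as did 1 of 4 fibroblast and 2 of 5 smooth muscle genes tested. Of 7 eosinophil genes tested, 4 were called lower in Ahrr-/-. The part of these markers in the result was not tested.

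Olfm4 had 467 to 981 normalized counts in Ahr-/- (median 794) and 987 to 5927 in Ahrr-/- (median 2402). The highest Ahr-/- sample, M3, lay just below the lowest Ahrr-/- sample, F2, without overlap. The difference, Ahrr-/- minus Ahr-/-, was 1.58 on the deposited log2 scale (SE 0.31, 95% interval 0.93 to 2.23, adjusted p = 0.00492 from limma). Olfm4 lies on chromosome 14 of GRCm38 from 79984081 to 80023139. Its promoter shown above precedes a RefSeq start that lies inside this range. Elf3, an ETS factor of epithelial cells on chromosome 1 from 135253575 to 135258568, had 99.7 to 157 normalized counts in Ahr-/- (median 123) and 184 to 578 in Ahrr-/- (median 327). Its genotypes did not overlap either, with Ahrr-/- F1 the closest to the highest Ahr-/- sample, F3. Elf3 differed by 1.09 (SE 0.21, 95% interval 0.65 to 1.54, adjusted p = 0.00466 from limma).

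Among Paneth cell genes, Mptx2 had 20.7 to 285 normalized counts in Ahr-/- (median 142), and only Ahrr-/- F2 with 185 lay within that range. Its difference was 2.08 on the deposited log2 scale (SE 0.50, adjusted p = 0.0157 from limma). Lyz1 differed by 1.91 (SE 0.51, adjusted p = 0.0239), and the highest Ahr-/- sample, F2, lay just above the lowest Ahrr-/- sample, also F2. Ang4 differed by 1.81 (SE 0.44, adjusted p = 0.0166 from limma), with 59.3 to 288 normalized counts in Ahr-/- (median 199). Among goblet genes, Spink4 had 371 to 3427 normalized counts in Ahrr-/- (median 1354) and differed by 1.88 (SE 0.37, adjusted p = 0.00579 from limma). Only Ahrr-/- F2 lay within the Ahr-/- range of Spink4. Zg16 had 575 to 7160 in Ahrr-/- (median 4940.3) and Clca1 371 to 3969 (median 2108). For both, Ahrr-/- F2 was the lowest of all 18 samples, yet their differences were 1.74 (adjusted p = 0.0189) and 1.36 (adjusted p = 0.0227 from limma). Fcgbp had 1038 to 1592 normalized counts in Ahr-/- (median 1374) and 1390.3 to 9293 in Ahrr-/- (median 3524), a difference of 1.38 (adjusted p = 0.0212 from limma). Muc2 and Guca2a, which encodes the hormone guanylin, had differences of 1.49 and 1.19 and missed the threshold (adjusted p = 0.0558 and 0.0507 from limma). For Muc2, Ahrr-/- F2 was the lowest of all samples and Ahrr-/- M1 lay within the Ahr-/- range.

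Cldn2, a pore-forming claudin, had 82.5 to 200.4 normalized counts in Ahr-/- (median 170) and 183 to 907 in Ahrr-/- (median 466). Ahrr-/- F2 alone lay within the Ahr-/- range, and the difference was 1.23 (SE 0.25, adjusted p = 0.00639 from limma). Sis differed by 1.63 (SE 0.47, adjusted p = 0.0341), with Ahrr-/- F1 and F2 among the Ahr-/- samples and the other 4 above them. Krt19 differed by 1.12 (adjusted p = 0.0189), Pigr by 1.02 (adjusted p = 0.0367), Hnf4a by 0.87 (adjusted p = 0.0409) and Cdh17 by 0.86 (adjusted p = 0.0359 from limma). Fabp1, with 67.8 to 557 normalized counts in Ahr-/- (median 275) and 78.1 to 1465 in Ahrr-/- (median 517), differed by 0.75 and did not pass (adjusted p = 0.344 from limma). The remaining called members were Lgals4, Epcam, Cldn3, Krt8, Cdh1, Phgr1, Cdx2, Cdx1 and Krt18, with differences between 0.63 and 1.18 on the deposited log2 scale.

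All 38 members tested had a higher mean in Ahrr-/-, with differences from 0.25 (Cldn15) to 2.08 (Mptx2). The 24 called members compare with 8.04% of the 11474 genes tested that were called higher in Ahrr-/-, and the 2 without overlap with 1.60%. Called higher in Ahr-/- were 0 members by limma and by voom, against 6.84% of all genes tested by limma, and 0 members were higher there without overlap, against 3.01%. Without adjustment, 34 of the 38 had a p below 0.05, as had 3760 of the 11474 genes tested. The median difference of the members was 1.09, against 0.00 over all genes tested. By role, 4 of 4 Paneth and stem genes tested, 4 of 4 transcription factors tested, 4 of 4 adhesion genes, both other epithelial genes, 4 of 6 goblet genes, 3 of 4 keratins, 2 of 4 claudins and 1 of 4 brush border genes passed. The median difference was 1.86 for Paneth and stem genes, 1.44 for goblet genes, 1.09 for the brush border, 1.07 for adhesion genes, 1.04 for keratins, 1.03 for claudins, 0.92 for other epithelial genes, 0.88 for lipid handling and 0.83 for transcription factors. Differences between roles were not tested. In the 3 comparisons, Spink4 was 1.20 higher in WT than in Ahr-/-, 0.68 higher in Ahrr-/- than in WT, where it did not pass, and 1.88 higher in Ahrr-/- than in Ahr-/-, on the deposited log2 scale.

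Many single libraries decided how many members passed between Ahr-/- and Ahrr-/-. The count fell from 24 to 15, 14, 11, 11 and 9 without Ahr-/- F1, F2, M1, M2 and M3, and to 15 and 12 without Ahrr-/- F3 and M3. Calls over all genes tested, in either direction, fell as well. They went from 1708 to 907, 970, 839, 933 and 818 without the same Ahr-/- libraries, and to 1001 and 923 without Ahrr-/- F3 and M3. The members' count was 29 without Ahr-/- F3 and 13 without sex in the model, where 1990 and 994 of all genes tested were called in either direction. Losses by gene are given below for left-out libraries only, and other alternatives also ended calls. Mptx2, Ang4, Spink4, Olfm4, Cldn2 and Elf3 were called in each of the 24 alternatives. Zg16 was no longer called without Ahr-/- M1, Fcgbp without Ahr-/- M2 or M3, Clca1 without Ahr-/- M2 or M3 or Ahrr-/- M3, Lyz1 without Ahr-/- M1 or M2 or Ahrr-/- M3, and Krt19 without Ahr-/- M1 or M3. Sis, Cdh17 and Pigr lost their call without any 1 of Ahr-/- F1, F2, M1, M2 and M3 or Ahrr-/- M1 and M3, and Cdh17 and Pigr also without Ahrr-/- F3. Hnf4a lost its call without any of the same 5 Ahr-/- libraries and without Ahrr-/- F3, M2 or M3. Cdx2 was called in each of the 23 alternatives that tested it, and Krt8 and Epcam lost their call without Ahr-/- M3. Lgals4, Cldn3, Cdh1, Phgr1, Cdx1 and Krt18 lost it without any 1 of Ahr-/- F2, M1, M2 and M3 and Ahrr-/- F3 and M3, all but Lgals4 also without Ahr-/- F1, and all but Cdx1 also without Ahrr-/- M1.

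**Figure D4:**
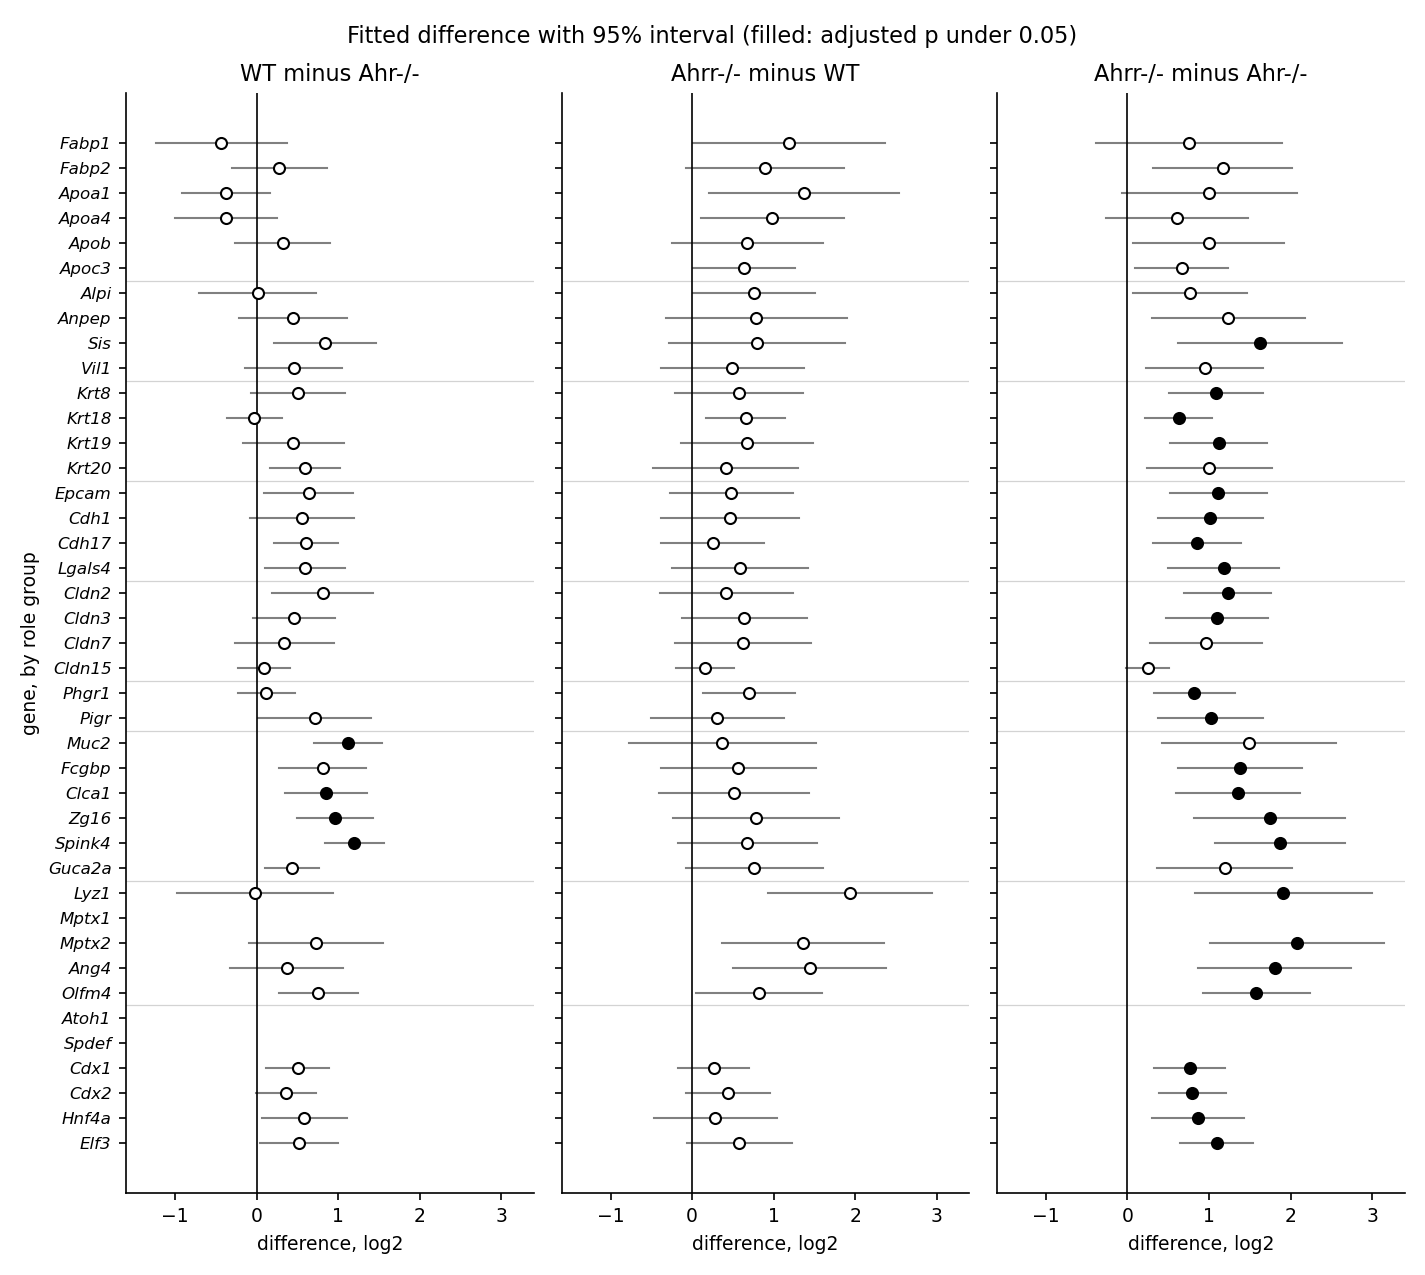
Differences in the deposited log2 value of each epithelial gene tested (WT minus Ahr-/-, Ahrr-/- minus WT and Ahrr-/- minus Ahr-/-), with 95% intervals from limma and filled points for an adjusted p below the threshold. Filled points number 4, 0 and 24 in the 3 comparisons, and the members' median differences are 0.50, 0.64 and 1.09.

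Males and females differed in epithelial share most within Ahrr-/-. The Ahrr-/- females had 0.254%, 0.347% and 1.34% of counts and the males 0.858% to 1.97%. WT females lay between 0.264% and 0.906% and WT males between 0.340% and 0.705%, and Ahr-/- females between 0.210% and 0.333% and males between 0.315% and 0.379%. The sexes thus overlapped in each genotype. An interaction of genotype with sex was called by limma for 0 of 37 members between WT and Ahr-/- and for 0 of 38 between WT and Ahrr-/-, and for 0% of all genes tested in both. Unadjusted p values below 0.05 were found for 0 and 2 members, and for 533 and 544 of all genes. Single libraries moved the members' counts far. Without WT F2 the count between WT and Ahr-/- was 10, and it was 1 or 2 without WT F1, M1 or M3 or Ahr-/- F3 or M3. Between WT and Ahrr-/- it was 30 of 38 without Ahrr-/- F3, the high female, where the median interaction of the members was -1.64 on the deposited log2 scale, against -0.97 with all samples. It was 8 without WT F2 or Ahrr-/- M2, 6 without WT M3 and 1 without Ahrr-/- F2. No member's interaction was called by limma in any of these fits.

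Fabp1 stands here for enterocytes, Vil1, the actin bundler villin, for the brush border, Muc2 for goblet cells and Lyz1 for Paneth cells, and each was also set against Reg3b, an antimicrobial lectin, Tff3, a trefoil peptide of goblet cells, and Prss2, a trypsinogen of the pancreas. Of 18 relations on the deposited log2 scale, 9 had an adjusted p below 0.05 by Pearson's r and 6 by Spearman's rho (two-sided permutation tests with 100000 resamples). Fabp1 and Vil1 were correlated, with r = 0.79 (permutation p = 0.00013, adjusted p = 0.00058) and rho = 0.77 (permutation p = 0.00033, adjusted p = 0.0015). Without Ahrr-/- M1 and F3, the samples farthest from the median of Fabp1, r was 0.72, and within WT, Ahr-/- and Ahrr-/- it was 0.92, 0.86 and 0.81. Vil1 and Muc2 had r = 0.76 (permutation p = 0.00035, adjusted p = 0.0013) and rho = 0.63 (permutation p = 0.0062, adjusted p = 0.019). Their r was 0.56 without Ahrr-/- F3 and M3 and 0.78, 0.09 and 0.76 within the genotypes in the same order.

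The r of Lyz1 with Fabp1 and with Vil1 was negative within Ahr-/- and positive within WT and Ahrr-/-, and differences between relations were not tested. For Fabp1 and Lyz1, r was 0.55 (permutation p = 0.017, adjusted p = 0.034) and rho 0.45 (permutation p = 0.063, adjusted p = 0.13), and r was 0.26 without Ahrr-/- M1 and F3, so the relation rested on those samples. Within WT, Ahr-/- and Ahrr-/-, r between Fabp1 and Lyz1 was 0.56, -0.39 and 0.83. For Vil1 and Lyz1, r was 0.42 (permutation p = 0.08, adjusted p = 0.13) and rho 0.33 (permutation p = 0.18, adjusted p = 0.27), with r = 0.18 without Ahrr-/- F3 and M3. Within Ahr-/-, r between Vil1 and Lyz1 was -0.79, against 0.22 in WT and 0.68 in Ahrr-/-, and these values within genotypes carry no test. Fabp1 and Muc2 had r = 0.29 (permutation p = 0.24, adjusted p = 0.31) and rho = 0.14 (permutation p = 0.57, adjusted p = 0.64), with r = 0.28 without Ahrr-/- M1 and F3. Muc2 and Lyz1 had r = 0.36 (permutation p = 0.14, adjusted p = 0.20) and rho = 0.32 (permutation p = 0.2, adjusted p = 0.27), with r = 0.08 without Ahrr-/- M3 and F3. Without the 2 farthest samples of each relation, 4 of the 18 passed by Pearson's r, 1 of them a pair of members.

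Tff3 and Reg3b were correlated with Vil1. Vil1 and Tff3 had r = 0.86 (permutation p = 1e-05, the smallest the permutations can give, adjusted p = 0.00018) and rho = 0.81 (permutation p = 0.0001, adjusted p = 0.0006), with r = 0.81 without Ahrr-/- F3 and M3 and 0.87, 0.50 and 0.88 within WT, Ahr-/- and Ahrr-/-. Vil1 and Reg3b had r = 0.79 (permutation p = 5e-05, adjusted p = 0.00045) and rho = 0.81 (permutation p = 8e-05, adjusted p = 0.0006), with r = 0.72 without the same samples. Within Ahrr-/-, r between Vil1 and Reg3b was 0.99, against 0.77 in WT and 0.57 in Ahr-/-. Muc2 and Reg3b had r = 0.76 (permutation p = 0.00011, adjusted p = 0.00058) and rho = 0.82 (permutation p = 5e-05, adjusted p = 0.0006), with r = 0.69 without Ahrr-/- M3 and F3. Their r was 0.29, 0.53 and 0.76 within WT, Ahr-/- and Ahrr-/-, and 0.63 with the mean of each genotype taken out. By Pearson's r, Tff3 also passed with Fabp1, Muc2 and Lyz1 (permutation adjusted p = 0.0035, 0.0025 and 0.0036). By Spearman's rho, it passed with Muc2 alone of these (permutation adjusted p = 0.054, 0.0015 and 0.081 in the same order). For Lyz1 and Tff3, r was -0.09 within Ahr-/- and 0.50 without Ahrr-/- M1 and Ahr-/- M2. Reg3b did not pass with Fabp1 (r = 0.44, permutation adjusted p = 0.12) or with Lyz1 (r = 0.38, permutation adjusted p = 0.19). Within Ahr-/-, r between Lyz1 and Reg3b was -0.56. Prss2 split the samples into 13 low and 5 high, with a gap of 36.6% of its range, so no r over all samples is given for its relations.

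Other epithelial genes were listed apart from the 41. The paper names Reg3b, Reg3g and Tff3 among genes of intestinal eosinophils and reports them as higher in WT than in Ahr-/- from the same WT and Ahr-/- samples. For Reg3b and Reg3g it also reports this by qPCR in eosinophils sorted from different mice. Reg3b had 1566 to 15003 normalized counts in WT (median 7726), 144 to 845 in Ahr-/- (median 335) and 578 to 19454 in Ahrr-/- (median 7049.8). Every Ahr-/- sample lay below every WT sample, and Ahrr-/- F2 and F1 were the lowest of Ahrr-/-. Reg3b was 3.76 higher in WT than in Ahr-/- (SE 0.49, adjusted p = 0.000112 from limma) and 3.62 higher in Ahrr-/- than in Ahr-/- (SE 0.59, adjusted p = 0.00126). Reg3g, a related lectin, had 1502 to 8953 normalized counts in WT (median 4656), 225 to 1100 in Ahr-/- (median 501) and 353 to 12561 in Ahrr-/- (median 5382). It was 2.81 higher in WT than in Ahr-/- (adjusted p = 0.000268) and 2.70 higher in Ahrr-/- than in Ahr-/- (adjusted p = 0.00541 from limma). Tff3 had 315 to 1143 normalized counts in WT (median 665), 231 to 410 in Ahr-/- (median 274) and 248 to 2769 in Ahrr-/- (median 1235). Its differences were 0.89 (adjusted p = 0.0293) and 1.64 (adjusted p = 0.0119 from limma) in the same comparisons, and WT overlapped with Ahr-/- in F2 and M1.

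Those 3 genes belong to a list of 18 other goblet and surface genes, whose most abundant gene was Lypd8, a protein that keeps bacteria from the mucosa. The list summed to medians of 25428 normalized counts in WT, 8177 in Ahr-/- and 40706 in Ahrr-/-. Between WT and Ahr-/-, 4 of 15 tested passed, all higher in WT, against 3.68% of all genes tested. Besides Agr2 these were Reg3b, Reg3g and Tff3, which the paper had already reported as higher in WT from these samples, so this count is no independent support. Between Ahr-/- and Ahrr-/- 10 of 16 passed, all higher in Ahrr-/-, against 8.04% of all genes tested. Between WT and Ahrr-/- 0 of 16 passed by limma, with 1 unadjusted p below 0.05. The 26 other enterocyte genes summed to medians of 5147, 5395 and 12773 normalized counts in WT, Ahr-/- and Ahrr-/-. Between Ahr-/- and Ahrr-/- 4 of 22 tested passed with higher values in Ahrr-/-, among them the glucose transporter Slc5a1 with a difference of 1.39 and Cdhr5, a cadherin of the brush border, with 1.26. Gda, guanine deaminase, went the other way. It was higher in Ahr-/- than in WT by 1.07 (adjusted p = 0.00035) and higher than in Ahrr-/- by 0.80 (adjusted p = 0.000952 from limma), without overlap in both, and no other of the 22 tested passed between WT and Ahr-/-. Between WT and Ahrr-/- 0 of 22 passed by limma, with 5 unadjusted p values below 0.05.

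Other Paneth and stem genes, 11 in number, were led by the defensin Defa24 and summed to medians of 2993 normalized counts in WT, 2789 in Ahr-/- and 8805 in Ahrr-/-. Between Ahr-/- and Ahrr-/- 7 of 11 passed, against 8.04% of all genes tested that were called higher in Ahrr-/-. Their differences were 2.52 for Defa30, 2.27 for Defa24 and 1.86 for Itln1, a lectin of Paneth cells. By limma, 0 of 10 passed between WT and Ahr-/- (3 unadjusted p values below 0.05) and 0 of 11 between WT and Ahrr-/-, where 8 had an unadjusted p below 0.05 and the median difference was 1.24. Enteroendocrine genes, 9 with Chgb as the most abundant, summed to medians of 399, 169 and 652 normalized counts. Cck, the gene of cholecystokinin, was 1.43 higher in Ahrr-/- than in Ahr-/- without overlap (adjusted p = 0.000502 from limma), and Gcg and Chgb were 1.01 and 0.86 higher, 3 of 4 tested. Against WT, 0 of 3 passed for Ahr-/- and 0 of 4 for Ahrr-/- by limma, with 1 unadjusted p below 0.05 in each. Tuft cell genes, of which 5 of 6 are in the table, were low, with sums of 17.6 to 158 normalized counts, and Dclk1, the most abundant and the only 1 tested, did not pass in any comparison by limma, with 0 unadjusted p values below 0.05.

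Marker genes of other tissues did not all follow the epithelial sum. Pancreatic acinar genes, 15 led by the chymotrypsinogen Ctrb1, summed to a median of 1562 normalized counts in WT, 112 in Ahr-/- and 283 in Ahrr-/-. WT M3 with 4924, Ahrr-/- M1 with 2792 and WT F1 with 2030 were highest. WT was split, as M1 with 95.2 and M2 with 204 lay within the Ahr-/- range of 49.9 to 632, and the other 4 WT samples had 1383 to 4924. Of 9 genes tested between WT and Ahr-/-, all higher in WT with a median difference of 1.51, 4 passed. Of all genes tested, 3.68% were called higher in WT. Those 4 genes, Ctrb1, Cela2a, Prss2 and Ctrl, had medians of 2.84, 0, 4.11 and 3.97 normalized counts in Ahr-/-, against 434, 87.9, 69.6 and 55.2 in WT. They reached the minimum mean through WT, so that filter largely fixed their direction. Ctrb1 was 2.74 higher in WT than in Ahr-/- (SE 0.69, adjusted p = 0.0206 from limma), and the other genes that passed were Cela2a with 1.55, Prss2 with 1.22 and Ctrl with 1.12. Between WT and Ahrr-/- 0 of 11 passed by limma (5 unadjusted p values below 0.05), and 1 of 4, Clps, was higher in Ahrr-/- than in Ahr-/-. Fibroblast genes, 7 led by Col3a1, summed to medians of 86.3, 83.7 and 362 normalized counts in WT, Ahr-/- and Ahrr-/-. Their highest samples were Ahrr-/- M3 with 1718, F3 with 962 and M1 with 560, the same samples that led the epithelial sum. Between Ahr-/- and Ahrr-/- 1 of 4 passed (Col1a2, 1.09), and by limma 0 of 2 passed between WT and Ahr-/- and 0 of 4 between WT and Ahrr-/-, with 0 and 3 unadjusted p values below 0.05. Smooth muscle genes, 5 led by Acta2, had median sums of 364, 318 and 604 normalized counts. Of these, Myh11 and Actg2 were 0.88 and 0.51 higher in Ahrr-/- than in Ahr-/-, and by limma 0 of 5 passed in each comparison with WT (1 unadjusted p below 0.05 for Ahr-/- and 0 for Ahrr-/-). Endothelial genes, 5 led by Pecam1, had median sums of 3291, 2066 and 2806 normalized counts. Pecam1 was the only 1 tested between WT and Ahr-/- and was 0.63 higher in WT without overlap, Cdh5 was 0.70 higher in Ahrr-/- than in Ahr-/- (1 of 4 tested), and 0 of 4 passed between WT and Ahrr-/- by limma, with 1 unadjusted p below 0.05.

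**Figure D5:**
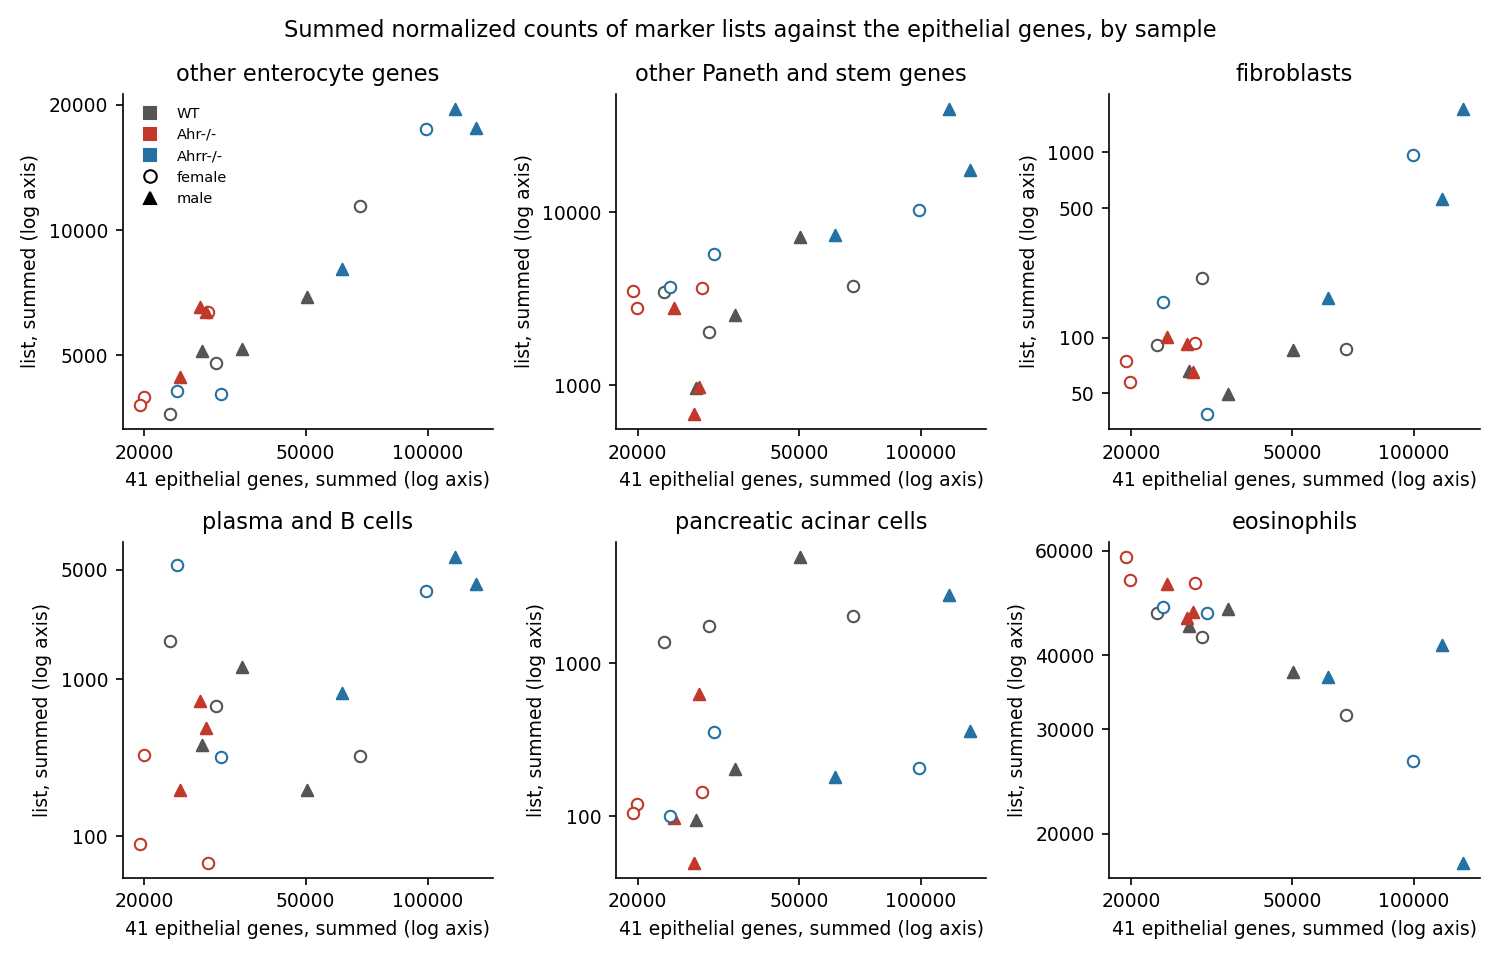
Summed normalized counts of 6 marker lists (vertical, log axes) against the sum of the 41 epithelial genes (horizontal) in the 18 samples by genotype. The epithelial sum runs from 19452 to 131983 normalized counts, and the eosinophil sum is lowest, with 17872, in Ahrr-/- M3, where the epithelial sum is highest.

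Leukocyte markers were mixed. Plasma and B cell genes, of which 5 of 8 are in the table, were led by Jchain, the joining chain of IgA and IgM, and summed to medians of 527, 264 and 3878 normalized counts in WT, Ahr-/- and Ahrr-/-. Jchain was high in Ahrr-/- M1 with 5833, F2 with 5227, M3 with 4029 and F3 with 3599.8 normalized counts, and it was 3.20 higher in Ahrr-/- than in Ahr-/- (SE 0.66, adjusted p = 0.00708 from limma), 1 of 2 tested. By limma 0 of 2 passed in both comparisons with WT, with 1 unadjusted p below 0.05 for Ahr-/- and 2 for Ahrr-/-. Macrophage and dendritic cell genes, 9 led by Itgax, had median sums of 9522, 12575 and 14170 normalized counts. Itgax was higher in Ahr-/- than in WT by 0.42 (1 of 8 tested) and than in Ahrr-/- by 0.61, C1qb was 1.06 higher in Ahrr-/- than in Ahr-/-, and 0 of 9 passed between WT and Ahrr-/- by limma, with 4 unadjusted p values below 0.05. Neutrophil genes, 6 led by Retnlg, had median sums of 39595, 87939 and 38340 normalized counts. Most of these sums was Retnlg, which alone lay between 22535 and 113020 normalized counts. Ly6g had at most 9.67 normalized counts in any sample, and Camp had a median of 0 in each genotype and at most 202. Retnlg was higher in Ahr-/- by 1.21 against WT and by 1.29 against Ahrr-/-, without overlap, while the calprotectin genes S100a8 and S100a9 were higher in Ahrr-/- by 2.06 and 2.10 against WT, without overlap, and by 1.73 and 1.69 against Ahr-/-. T cell genes, of which 7 of 9 are in the table with Cd160 leading, summed to 17.4 to 153 normalized counts, and mast cell genes, 6 led by Kit, to 58.8 to 538. In each of these lists 0 of 1 tested passed by limma in every comparison, with 0 unadjusted p values below 0.05.

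Eosinophil genes, 12 led by the lipoxygenase Alox15, summed to medians of 43863 normalized counts in WT, 52793 in Ahr-/- and 39141 in Ahrr-/-. The sum was lowest in Ahrr-/- M3 with 17872, Ahrr-/- F3 with 26515 and WT F1 with 31690, which were among the 4 highest samples of the epithelial sum. Ahrr-/- M1, which also was among them, had 41549. Prg2 was higher in Ahr-/- than in WT by 2.30 (adjusted p = 3.47e-07) and than in Ahrr-/- by 2.07 (adjusted p = 1.81e-05 from limma), without overlap. Alox15 was higher in Ahr-/- by 0.58 and 0.79. Il5ra was 0.75 higher in Ahr-/- than in Ahrr-/-, and 2 of 7 tested passed against WT and 4 of 7 against Ahrr-/-, all higher in Ahr-/-. By limma 0 of 7 passed between WT and Ahrr-/-, with 0 unadjusted p values below 0.05. No gene of these lists had a count of 0 in all samples. The sums of the fibroblast, smooth muscle, endothelial, acinar and enteroendocrine lists differed between genotypes or between the samples high and low in epithelial genes. So did those of the macrophage and dendritic cell, plasma and B cell, neutrophil and eosinophil lists. The part of all these lists in the result was not tested.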

How the data were processed

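The authors converted the RNA with a NuGEN Ovation kit and sequenced single-ended reads. According to the submitters' notes, they used STAR 2.5.2, RSEM 1.3.0, R 4.0.3 and DESeq2 with GRCm38. The deposited table holds the authors' variance-stabilized values on a log2 scale. These were turned back into counts, 100% of them whole (tolerance 0.0001). Each gene was fitted with limma 3.58.1 in R 4.3.3 with a mean-variance trend and sex as covariate, over genes with a mean at least 1 above the lowest value in the 12 samples compared, and called at a Benjamini-Hochberg adjusted p below 0.05 over all of them. The fit was tested on simulated data. Named are the most abundant gene of each of 9 roles, members called in a comparison (at most 10, by size), and Reg3b, Reg3g and Tff3. From the 15 marker lists, most abundant genes and up to 3 called genes per list are named, and other genes were named after their values were seen. The members and lists were chosen with earlier results of these data known. Alternatives covered the minimum mean, scaling, log2(normalized count + 1), voom, trend, weights, replicate block, sex, all samples together and leaving out each sample. Tables, permutations and figures were made in Python 3.11.15 (scipy 1.17.1 for permutations and intervals, matplotlib 3.10.9 for figures, pandas 2.3.3 and numpy 2.4.6 for tables).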

Additional observations from a re-analysis of the deposited data

Results flagged for a closer look

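Among 135 groups of 6 samples that were examined, 1 held a sample far from the others. In Ahr-/-, Cdx1, a homeobox factor of the intestinal epithelium, was 7.29 on the deposited log2 scale in F3 and 6.31 to 6.65 in the other 5 samples. The gap was 0.647 of the whole range, above Dixon's limit for 6 samples, which chance passes in about 1 in 20 groups. Ahr-/- F3 is a library with few genes at a count of 0.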

How the results depend on the processing

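The 4 members called higher in WT than in Ahr-/- became 7 with values centred on the median and 0 with all 18 samples in the fit, and lay between 3 and 11 when each library was left out in turn. Over all genes tested, the 418 called higher in WT became 394 with centred values and 236 with all 18 samples. Between Ahr-/- and Ahrr-/-, the 24 called members became 13 without the sex covariate and lay between 9 and 32 when each library was left out. Over all genes tested, the 1708 called there in either direction became 994 without that covariate. They lay between 818 and 2574 when each library was left out. The replicate number as a block gave 6, 0 and 33 called members in the 3 comparisons, although samples with the same number did not pair. With that block, 918, 4 and 1946 of all genes tested were called in either direction, against 1003, 9 and 1708 in the main fits. Between WT and Ahrr-/-, 0 members were called by limma under all 24 alternatives, voom included, and the number with an unadjusted p below 0.05, 11 with all samples, lay between 4 and 28 when each library was left out. The 9 relations called by Pearson's r became 4 without the 2 farthest samples. Log2 ratios of the summed medians ran from 0.21 to 0.42 (WT to Ahr-/-), 0.92 to 1.62 (Ahrr-/- to WT) and 1.24 to 1.93 (Ahrr-/- to Ahr-/-) when each library was left out, and kept their sign. No called member reversed. Leaving out WT F3 and Ahr-/- F3 together was chosen after seeing the data. Causes of these changes were not tested. WT had the fewest reads, so low counts are least precise there.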
